A study of Mus musculus with 37 samples.

Results

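The chaperonin CCT, also called TRiC, was examined through its 8 subunit genes, Tcp1, Cct2, Cct3, Cct4, Cct5, Cct6a, Cct7 and Cct8, in single mouse oocytes. The genes were chosen by symbol as the subunits of a single complex, and they are 8 of the 54752 genes and 67 of the 138835 transcripts in the count tables once the spike-in sequences are set aside. RNA of 37 oocytes from C57BL/6 females 6 to 8 weeks old was sequenced by Smart-seq2 in 2 batches. Batch A held 6 oocytes at the germinal vesicle (GV) stage and 6 at metaphase II (MII), and batch B held 10 GV oocytes and 15 oocytes at metaphase I (MI). The females had received 5 IU PMSG, and GV oocytes were taken from their ovaries 48 h later. For MII, 5 IU hCG followed PMSG by 48 h and ovulated oocytes came from the ampulla 15 h after hCG, whereas MI oocytes were GV oocytes kept for 8 h in M16 medium, so MI was reached in culture and MII in the animal. The zona was dissolved and the polar body removed from the oocytes. No animal is named in the labels, so each oocyte was used as a replicate and every p-value below measures the spread between oocytes alone. The question was whether the subunits change together from GV to MII within batch A and from GV to MI within batch B.

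CCT is a double ring in the cytosol in which the subunits, all related in sequence, sit in a fixed order and use ATP to fold bound proteins. Its best known clients are actin and tubulin, which reach it with the help of prefoldin, and the cell cycle activator Cdc20 is another. In a maturing oocyte tubulin builds the meiotic spindle and actin filaments carry it to the cortex, while the genome is largely silent, so that the messages present were mostly made during growth.

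Cct2 (beta), Cct4 (delta) and Cct5 (epsilon) belong to the side of the ring that binds ATP tightly, and Cct3 (gamma), Cct6a (zeta) and Cct8 (theta) to the side that binds it weakly. Tcp1 is the alpha subunit and gave the family its name, and Cct7 is the eta subunit. On GRCm38 the genes lie on 8 chromosomes. Cct2 (ENSMUSG00000034024.8) is at chr10:117051001-117063814 on the minus strand, Cct4 (ENSMUSG00000007739.10) at chr11:22990519-23003780 on the plus strand and Cct5 (ENSMUSG00000022234.15) at chr15:31590800-31601804 on the minus strand. Cct3 (ENSMUSG00000001416.13) is at chr3:88297116-88321767 on the plus strand, Cct6a (ENSMUSG00000029447.11) at chr5:129786998-129846371 on the plus strand and Cct8 (ENSMUSG00000025613.13) at chr16:87483326-87495873 on the minus strand. Tcp1 (ENSMUSG00000068039.13) lies at chr17:12915701-12925067 and Cct7 (ENSMUSG00000030007.8) at chr6:85451514-85468475, both on the plus strand. GENCODE M21 gives each gene 5 to 12 transcripts, and it types Cct6a as a processed transcript with 0 coding transcripts of 7, although the gene encodes a subunit.

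The median depth by RSEM in batch A was 10014033 expected counts for GV (range 7509875 to 12648629) and 10509159.5 for MII (9930485 to 13988444). The medians in batch B were 11548242 for GV (7184205 to 17724506) and 12840734 for MI (2709280 to 19390128). Some libraries stood apart. MII oocyte 1 had at least 1 count for 29518 genes, where the median MII oocyte had 20264.5 genes, and MI oocyte 15 had the lowest depth and 12505 such genes. In MI oocytes 4, 8 and 9 the total of HTSeq counts was 0.529 to 0.648 times the RSEM total, against 0.877 to 1.53 times in the other 34 oocytes. The changes of the subunits within a batch were also fitted without these libraries, but the contrast between the batches, the HTSeq fit of batch A and the list results were not fitted without MII oocyte 1 or MI oocyte 15. ERCC spike-ins had 44663 to 143062 expected counts per oocyte in batch A but 0 to 32 in batch B, so scaling by spike-ins was possible in batch A alone.

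The label oocyte was checked against marker genes. All 12 oocyte markers had counts in every oocyte, and Gdf9 was the most abundant. Their summed level had a median of 12067 CPM in GV and 8265 CPM in MII oocytes of batch A, and of 4595 CPM in GV and 4147 CPM in MI oocytes of batch B, where CPM is the expected count scaled by TMM within the batch. Of the 12 markers 6 fell from GV to MII in batch A, Zp3 the furthest with a log2 fold change of -2.21 (adjusted p = 1.05e-05). In batch B 0 were called by edgeR or DESeq2, with 4 at an unadjusted p under 0.05 in edgeR, beside 1371 of all 12419 genes. The 16 cumulus and granulosa markers summed to a median of 52.5 CPM in GV and 39.6 CPM in MII oocytes of batch A, and to 38.1 CPM in GV and 36.8 CPM in MI oocytes of batch B, with the highest sum, 79.9 CPM, in MI oocyte 15. Cyp19a1 and Nr5a2 were the most abundant of them and had counts in every oocyte. Kitl and Inhba were at 0 in 1 oocyte each, Gja1 in 4, Has2 in 8, Cyp11a1 in 9 and Ccnd2 in 12, while Fshr was at 0 in 29, Foxl2 in 32 and Amh in 35 of the 37. In batch B, 2 of the 6 tested fell at MI, Gja1 and Ccnd2 (adjusted p = 0.0174 for each), where DESeq2 called 3 of 8 lower, these and Inhba. HTSeq counts gave 0 of 7, with 4 at an unadjusted p under 0.05, beside 927 of all 12441 genes. In batch A 0 of the 3 that passed the filter of edgeR were called or had an unadjusted p under 0.05. DESeq2, which tested 11 of them in batch A, called 4 lower at MII, Fshr, Inha, Ccnd2 and Cyp11a1, named after their values were seen, and with HTSeq counts 1 of 6 was, Cyp11a1. The 8 blood and immune markers summed to at most 7.43 CPM outside MII oocyte 1, which reached 16.6 CPM, and Hbb-bs was the most abundant of them. The part of these genes in the subunit values was not tested.

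Levels were compared between subunits as TPM, the expected counts of each transcript divided by its annotated length and scaled to the same sum in each oocyte. Cct5 was the most abundant subunit message in every group, with median levels of 384 TPM in GV and 249 TPM in MII oocytes of batch A, and of 465.5 TPM in GV and 465 TPM in MI oocytes of batch B. It ranked 231 of 13255 genes with a median of at least 1 TPM in the GV oocytes of batch A and 117 of 11366 in the MI oocytes. Cct8 was next, with medians of 205, 218, 280 and 240 TPM in the same order of groups, and then Cct3 with 179, 113, 94.4 and 82.0 TPM. Cct5 lay above Cct8 in 6 of 6, 5 of 6, 10 of 10 and 15 of 15 oocytes of the groups, and Cct8 above Cct3 in 4 of 6, 6 of 6, 10 of 10 and 15 of 15. Cct7, with medians from 12.8 to 30.1 TPM, and Cct4, with medians from 20.9 to 29.8 TPM, were lower. Cct6a had medians of 47.4, 61.8, 24.4 and 37.1 TPM, but without its transcript Cct6a-203, whose counts are in doubt as described below, 10.7, 2.75, 3.25 and 2.46 TPM, the lowest median in every group. Cct7 and Cct4 lay above 56.7% to 73.9% of the genes with a median of at least 1 TPM.

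The middle of the order was less settled. In batch A Tcp1 followed Cct3, with medians of 121 TPM in GV and 76.5 TPM in MII oocytes, and Cct2 came next with 115 and 63.0 TPM. Tcp1 exceeded Cct2 in 3 of 6 GV oocytes, so the levels of these neighbours did not differ beyond their spread there. In batch B the medians of Cct2 were 87.5 TPM in GV and 75.1 TPM in MI oocytes, against 42.2 and 36.7 TPM for Tcp1, and Cct2 was above Tcp1 in 10 of 10 GV oocytes. Cct3 and Cct2 could not be ordered in batch B, since Cct3 was higher in 5 of 10 GV and 7 of 15 MI oocytes. The same held for Cct4 and Cct7 in batch A, where Cct7 was above Cct4 in 2 of 6 GV oocytes and Cct4 above Cct7 in 3 of 6 MII oocytes. So the messages for proteins that stand in equal number in the ring differed in level, and Cct5 alone held a mean of 34.3% ± 1.69 (SD, n = 6) of the summed TPM of the subunits in GV oocytes of batch A, 31.1% ± 1.68 (n = 6) at MII, 46.9% ± 4.69 (n = 10) in GV oocytes of batch B and 48.8% ± 2.28 (n = 15) at MI. With HTSeq counts per base of merged exons Cct5 and Cct8 were again the highest, but the order below them changed. Cct2 then held means of 13.9%, 11.4%, 10.5% and 9.46% in GV and MII of batch A and GV and MI of batch B, above Cct3 with 6.03%, 6.00%, 3.62% and 3.04% and, in batch A, above Tcp1 with 5.99% and 5.46%. This measure changes both the counts and the length they are divided by. The ratio of HTSeq to RSEM counts was 2.04 for Cct2 and 2.11 for Cct3, while the merged exons span 2557 and 6370 bases, so the drop of Cct3 below Cct2 came with the length. Batch, collection and sequencing cannot be told apart in a difference between the batches, and none was tested.

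**Figure D1:**
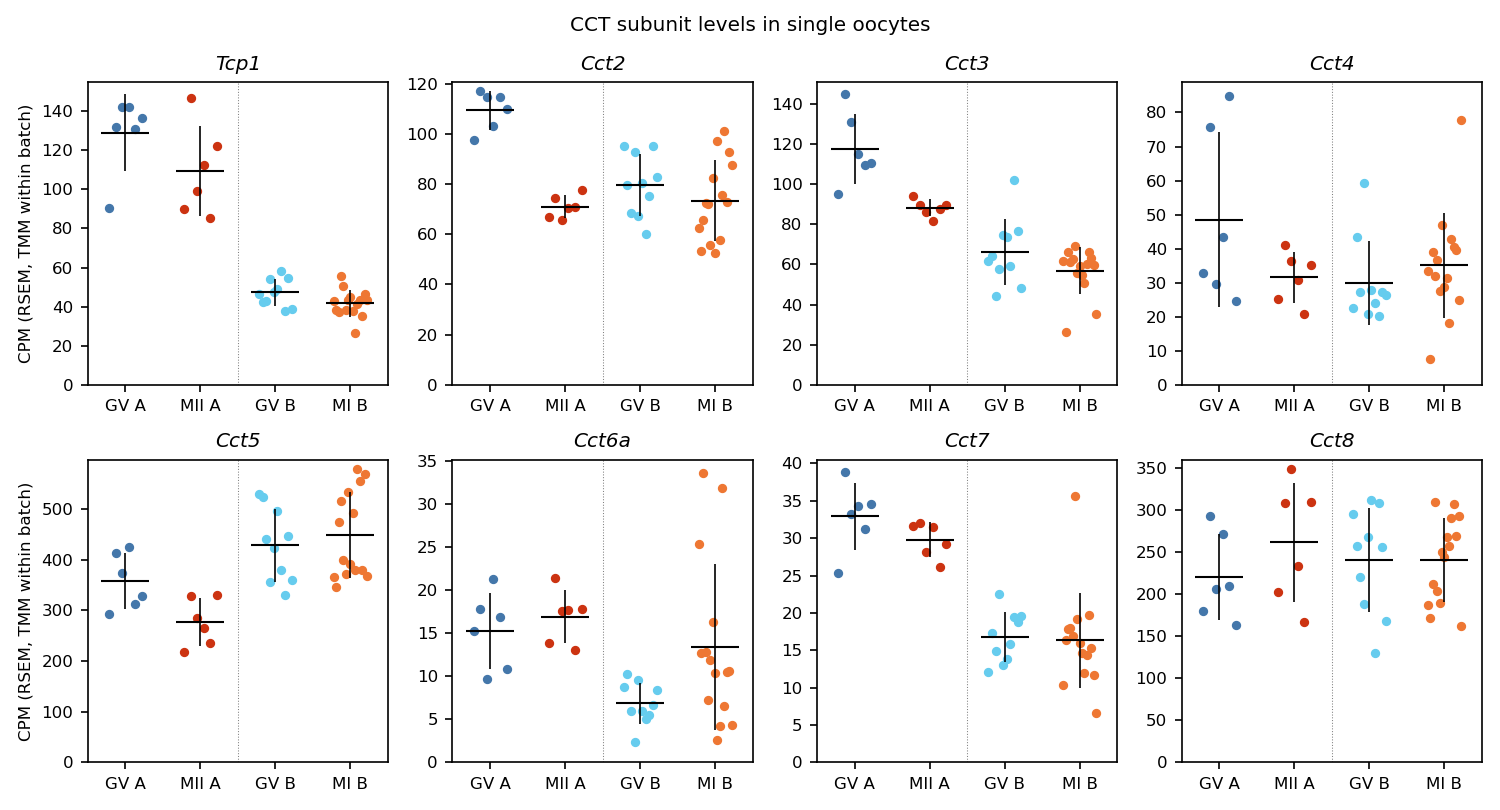
Level of each subunit in every oocyte (points, CPM of RSEM expected counts with TMM scaling within the batch) by group, with the group mean as a horizontal line and the SD as a vertical line. Cct2 and Cct3 are the subunits whose MII oocytes all lie below the lowest GV oocyte of batch A, as in 5.71% of all genes tested. With HTSeq counts Cct3 does overlap. In batch B the groups overlap for all 8.

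From GV to MII in batch A, 2 of the 8 subunits fell, Cct2 and Cct3, and 0 rose. Over all 12929 genes tested with edgeR, 11.5% were lower and 9.06% higher at an adjusted p under 0.05. At an unadjusted p under 0.05, 4 of 8 subunits were lower, Cct2, Cct3, Cct4 and Cct5, beside 2285 of all 12929 genes. No subunit rose at that threshold, and DESeq2 called Cct2 and Cct3 lower and 0 higher. None of the 8 was called with a change of more than 2-fold, as 6.32% of all genes were in the lower direction. The log2 fold change was negative for 6 of 8, with a median of -0.304 over the subunits and 0.0129 over all genes. The subunits were thus not called together in this comparison.

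Cct2 had 97.3 to 117 CPM in the GV oocytes of batch A, with a median of 112 CPM, and 65.8 to 77.8 CPM in the MII oocytes, with a median of 70.7 CPM. Every MII oocyte was below every GV oocyte, as in 5.71% of all genes tested, and both groups were narrow. The mean fell from 109 CPM ± 7.73 (SD, n = 6) to 71.0 CPM ± 4.48 (n = 6), a log2 fold change of -0.62 (SE 0.111) with an adjusted p of 0.00127, lower in 6 of 6 MII oocytes. Without MII oocyte 1 it was -0.60 (adjusted p = 0.00523). With HTSeq counts the groups did not overlap either, at 154 to 184 CPM for GV and 114 to 128 CPM for MII.

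Cct3 had 94.9 to 145 CPM in the GV oocytes of batch A, with a median of 113 CPM, and 81.5 to 94.2 CPM in the MII oocytes, with a median of 88.7 CPM. All MII oocytes lay below the lowest GV oocyte, but by a thin margin, since GV oocyte 1 and MII oocyte 1 nearly met. The mean fell from 118 CPM ± 17.6 (SD, n = 6) to 88.2 CPM ± 4.22 (n = 6), a log2 fold change of -0.42 (SE 0.124) with an adjusted p of 0.0259. Without MII oocyte 1 it was -0.43 (adjusted p = 0.0448). The call was lost without GV oocyte 3 (-0.38, adjusted p = 0.0560) and without MII oocyte 4 (-0.39, adjusted p = 0.0596), with no filter on low counts (adjusted p = 0.101), with all 37 oocytes and a batch covariate (adjusted p = 0.256) and with HTSeq counts (-0.23, adjusted p = 0.246), where 4 of 6 MII oocytes were below the lowest GV oocyte. Cct2 and Cct3 were the 2 of 8 subunits without overlap in this direction, and 5.71% of all genes tested showed it.

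On the side of the ring that binds ATP tightly, Cct5 had 292 to 425 CPM in GV and 217 to 330 CPM in MII oocytes of batch A, and 4 of 6 MII oocytes were below the lowest GV oocyte. Its log2 fold change was -0.37 (SE 0.143), with an adjusted p of 0.0777. Cct4 had 24.63 to 84.9 CPM in GV and 20.7 to 41.1 CPM in MII oocytes, with 1 of 6 MII oocytes below the lowest GV oocyte and GV oocytes 2 and 5 far above the other 4, a wide spread with a coefficient of variation of 52.7% in GV, and its log2 fold change of -0.62 (SE 0.286) came with an adjusted p of 0.133. With no filter on low counts Cct4 was called lower (adjusted p = 0.0310). With an oocyte left out in turn the log2 fold change of Cct4 ran from -0.76 to -0.39 (adjusted p from 0.0610 to 0.352), and that of Cct2 from -0.65 to -0.60.

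On the side that binds ATP weakly, Cct8 had 163 to 293 CPM in GV and 167 to 348 CPM in MII oocytes of batch A, and 3 of 6 MII oocytes were above the highest GV oocyte. Its log2 fold change was 0.25 (SE 0.192, adjusted p = 0.394), which turned to -0.47 (adjusted p = 0.0996) under spike-in scaling. Cct6a is described with its transcripts further on. Of the others, Tcp1 had a log2 fold change of -0.24 (SE 0.157, adjusted p = 0.299) over 90.3 to 142 CPM in GV and 85.3 to 147 CPM in MII oocytes. Cct7 had -0.15 (SE 0.137, adjusted p = 0.485), with all 6 MII oocytes within the range of the GV oocytes but below their median.

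Scaling by spike-ins gave a lower level at MII for most of the transcriptome. The median log2 fold change of all genes in batch A was then -0.716, and 42.2% of them were called lower, as were 6 of 8 subunits, Tcp1, Cct2, Cct3, Cct4, Cct5 and Cct7. Relative to that median, the log2 fold change was -0.65 for Cct2, -0.67 for Cct4, -0.42 for Cct3, -0.36 for Cct5, -0.22 for Tcp1 and -0.14 for Cct7, and 0.17 for Cct6a and 0.24 for Cct8. The order of the subunits was therefore nearly that of the TMM fit, and what moved was the level of the whole library against the spike-ins. Less RNA in the oocyte and a lower yield from it cannot be told apart in these counts.

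Together the subunits held 0.0897% to 0.137% of the gene counts of a GV oocyte in batch A, with a median of 0.115%, and 0.0585% to 0.108% of those of an MII oocyte, with a median of 0.0830%. The groups overlapped. The ratio of the mean shares was 0.730, or 0.782 with the ribosomal RNA-like gene CT010467.1 taken out of the total, and 0.522 per spike-in count. In batch B the median share was 0.0945% in GV and 0.0956% in MI oocytes, with a ratio of means of 0.993. These shares are a description and were not tested.

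From GV to MI in batch B, 0 of the 8 subunits were called lower and 0 higher by edgeR, and DESeq2 and HTSeq counts gave 0 as well. At an unadjusted p under 0.05 there was 1, Cct6a, beside 1371 of all 12419 genes. Few genes were called at all, 0.0483% of 12419 lower and 0.0966% higher, or 6 and 12 genes. These counts were unstable, with 15 and 82 genes without MI oocyte 9 and 0 and 0 without MI oocyte 7, and DESeq2 called 51 lower and 191 higher. The median log2 fold change was -0.0118 over the subunits and 0.0178 over all genes, and 4 of 8 were negative. In no subunit did every MI oocyte lie below every GV oocyte, and the share of all genes that did was 0%.

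Cct2 had 60.0 to 95.0 CPM in the GV oocytes of batch B, with a median of 80.0 CPM, and 52.5 to 101 CPM in the MI oocytes, with a median of 72.5 CPM. Its ranges overlapped nearly in full, and the log2 fold change was -0.12 (SE 0.125, adjusted p = 0.796). Cct3 ran from 44.3 to 102 CPM at GV, with a median of 63.1 CPM, and from 26.2 to 69.1 CPM at MI, with a median of 60.4 CPM, again overlapping, with a log2 fold change of -0.22 (SE 0.144, adjusted p = 0.623). Cct5 lay at 331 to 530 CPM in GV and 346 to 579 CPM in MI oocytes, and Cct8 at 130 to 312 CPM and 163 to 309 CPM. Their log2 fold changes were 0.07 (SE 0.113) and 0.00 (SE 0.138), with adjusted p of 0.897 and 0.995. That of Tcp1 was -0.18 (SE 0.119, adjusted p = 0.628) and that of Cct7 -0.03 (SE 0.192, adjusted p = 0.979). Cct4 had a log2 fold change of 0.22 (SE 0.231, adjusted p = 0.793), and its highest value, 77.7 CPM, was that of MI oocyte 15, without which it was 0.10 (adjusted p = 0.923).

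**Figure D2:**
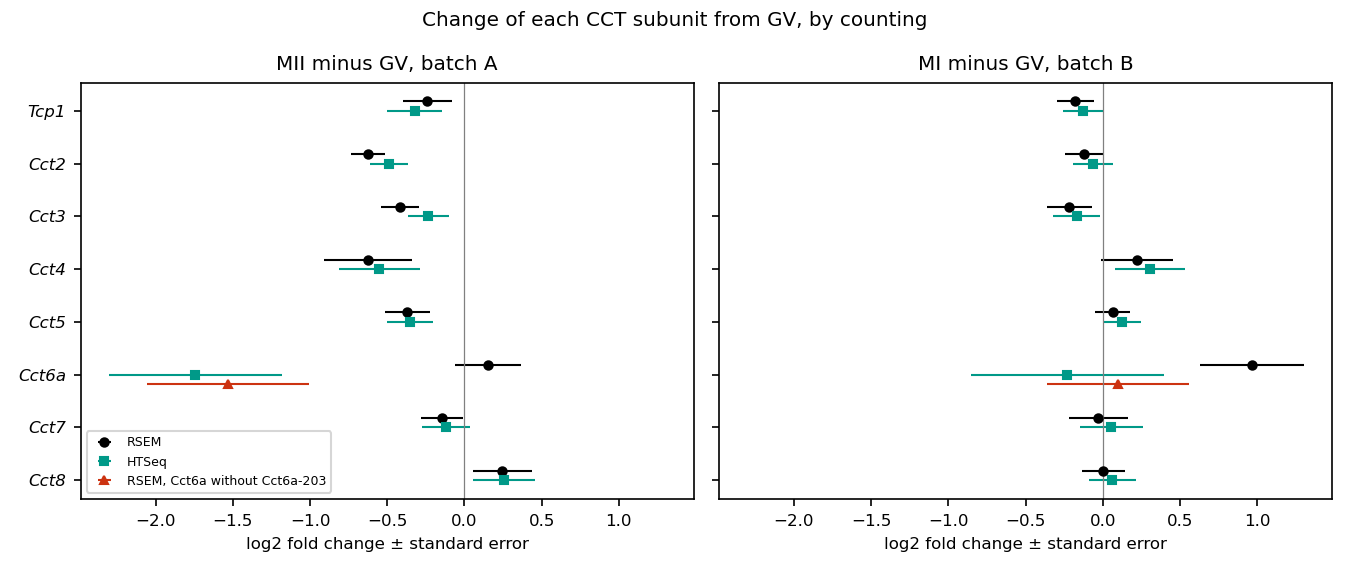
Log2 fold change of each subunit, with its standard error as bars, from GV to MII in batch A and from GV to MI in batch B, by RSEM expected counts, by HTSeq counts and, for Cct6a, by RSEM without Cct6a-203. In batch A 6 of 8 lie below 0 by RSEM, and Cct6a turns from positive to negative by HTSeq.

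The change to MII was tested against the change to MI in a fit of all 37 oocytes. Of the 8 subunits 0 differed in either direction, where 2.36% of 15083 genes differed in the negative and 3.10% in the positive direction, and DESeq2 was not run on this contrast. At an unadjusted p under 0.05 there was 1, beside 2671 of all 15083 genes, and it was Cct2, with a log2 difference of -0.43 (SE 0.195, adjusted p = 0.220). The other differences ran from -0.76 for Cct4 (SE 0.395, adjusted p = 0.316) to 0.32 for Cct8 (SE 0.247, adjusted p = 0.566), and 6 of 8 were negative in all. So the calls of Cct2 and Cct3 at MII, and their absence at MI, were not shown to differ between the stages. Stage, batch and the place of maturation cannot be told apart in this contrast.

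Of the 67 transcripts of the subunits, 21 passed the low-count filter in batch A, and 2 of these fell at MII, Cct2-201 and Tcp1-201. The share of all 22461 transcripts tested was 5.81% lower and 3.49% higher. In edgeR 0 of the 21 rose, DESeq2 gave the same count, and at an unadjusted p under 0.05 there was 1 with a positive change, Cct6a-203. Of all 22461 transcripts 5438 passed that threshold, 2939 of them with a negative change. Cct2-201 carried nearly all of its gene, with medians of 92.3% to 99.3% of the counts of Cct2 in the groups. It had 91.2 to 116 CPM in GV and 64.0 to 76.0 CPM in MII oocytes, without overlap, and a log2 fold change of -0.63 (SE 0.102, adjusted p = 0.00215). How many of all transcripts lacked overlap was not counted.

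Tcp1 showed a change in a transcript that its gene total did not. Tcp1-201, which ends early, had 19.5 to 50.5 CPM in GV oocytes of batch A, with a median of 40.6 CPM, and 14.6 to 24.5 CPM in MII oocytes, with a median of 16.7 CPM. The ranges overlapped at GV oocyte 1, which held the lowest GV value. Its log2 fold change was -1.06 (SE 0.227, adjusted p = 0.0115), and -1.01 (adjusted p = 0.0314) without MII oocyte 1. Tcp1-209, the longer and more abundant transcript, had 68.1 to 102 CPM in GV and 69.1 to 117 CPM in MII oocytes, a log2 fold change of -0.02 (adjusted p = 0.951).

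As a share of the counts of Tcp1, Tcp1-201 held 21.7% to 37.7% in the GV oocytes of batch A, with a median of 28.8%, and 14.9% to 20.1% in the MII oocytes, with a median of 16.9%. These shares did not overlap, but how many of all transcripts show this was not counted. In batch B the shares did overlap, from 6.07% to 34.9% at GV, with a median of 18.8%, and from 3.46% to 25.7% at MI, with a median of 16.2%. Shares were not tested, and RSEM divides the reads that both transcripts share by its model, so a share rests on the reads that tell them apart.

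**Figure D3:**
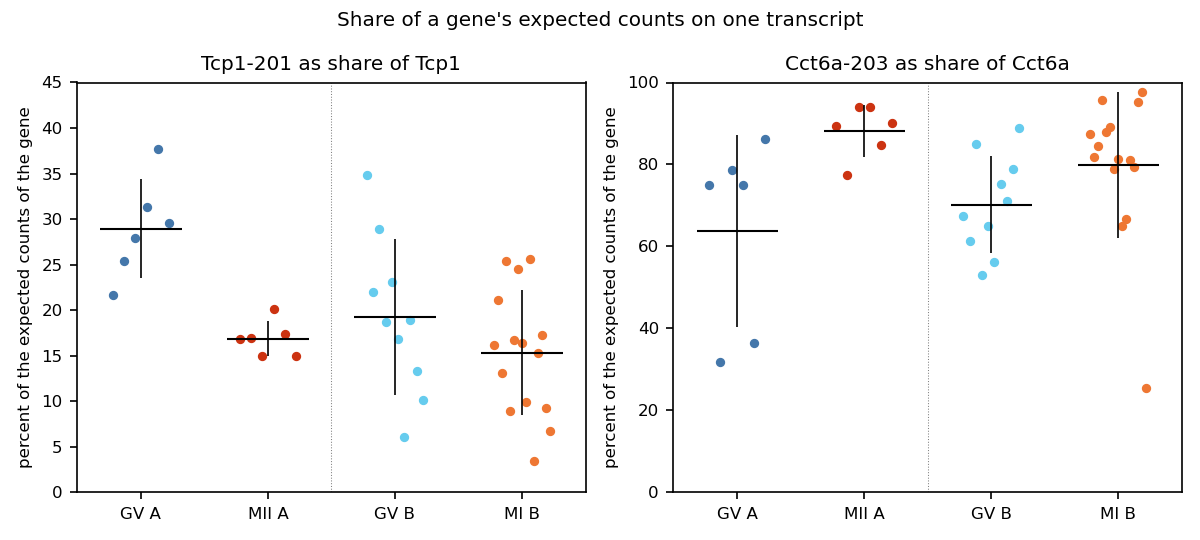
Percent of the expected counts of Tcp1 held by Tcp1-201 and of Cct6a held by Cct6a-203 in each oocyte (points) by group, with the group mean as a horizontal line and the SD as a vertical line. The share of Tcp1-201 is lower in all MII oocytes, at most 20.1%, than in any GV oocyte of batch A, at least 21.7%. How many of all transcripts show this was not counted.

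In batch B 21 transcripts of the subunits were tested and 0 were called by edgeR or by DESeq2, with 0% of all 22717 transcripts called lower and 0% higher by edgeR, while DESeq2 called 26 lower and 172 higher of 41364. At an unadjusted p under 0.05 there were 2, beside 1615 of all 22717. These were Cct6a-203 with a log2 fold change of 1.21 (adjusted p = 0.445) and a transcript of Cct3 with -0.80 (adjusted p = 0.631). Cct2-201 had -0.14 (adjusted p = 0.963), Tcp1-201 had -0.49 (adjusted p = 0.852) and Tcp1-209 had -0.17 (adjusted p = 0.946).

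Cct6a differed from the other subunits in how it was counted. Its RSEM level was 9.64 to 21.3 CPM in GV and 13.0 to 21.5 CPM in MII oocytes of batch A, with medians of 16.1 and 17.7 CPM, and the groups overlapped. In batch B it ran from 2.37 to 10.3 CPM at GV, with a median of 6.33 CPM, and from 2.58 to 33.6 CPM at MI, with a median of 10.6 CPM, and 10 of 15 MI oocytes were above the highest GV oocyte. The log2 fold change was 0.15 (SE 0.214, adjusted p = 0.661) in batch A and 0.97 (SE 0.337, adjusted p = 0.224) in batch B, where it was 1.10 (adjusted p = 0.149) without MI oocytes 4, 8 and 9 and 1.02 (adjusted p = 0.160) without MI oocyte 15. Most of these counts belonged to Cct6a-203, a retained-intron model of 460 nucleotides at chr5:129789878-129791064, with medians of 75.0%, 89.8%, 69.2% and 81.9% of the gene's counts in GV and MII of batch A and GV and MI of batch B. Bases 238 to 460 of that model matched transcripts of 834 other genes at 85% identity or more over at least 150 bases.

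HTSeq counts of Cct6a went the other way in batch A, and in batch B their change was negative but not called. They had medians of 4.81 CPM in GV and 1.54 CPM in MII oocytes of batch A, with 4 of 6 MII oocytes below the lowest GV oocyte, and a log2 fold change of -1.74 (adjusted p = 0.0413). GV oocytes 2 and 5 had 15.9 and 13.6 CPM by HTSeq for Cct6a, and the other 4 had 2.51 to 4.955 CPM. With HTSeq counts 2 of 8 subunits, Cct2 and Cct6a, were called lower in batch A, where 8.79% of all genes were. Counting Cct6a by RSEM without Cct6a-203, an alternative chosen after seeing the data, gave -1.53 (adjusted p = 0.0481). In batch B it gave 0.10 (adjusted p = 0.970), and HTSeq counts gave -0.23 (adjusted p = 0.973). By HTSeq the medians of Cct6a were 3.92 CPM in GV and 2.53 CPM in MI oocytes of batch B. MI oocytes 4, 8 and 9, with their low HTSeq totals, had 0, 0.913 and 0 CPM, and the negative value includes them. The ratio of HTSeq to RSEM counts was 0.364 for Cct6a and 1.46 for Tcp1, against 1.84 to 2.11 for the other subunits and a median of 1.97 over 8243 genes. The direction of Cct6a at MII thus depended on 1 short transcript model. At MI most of its positive change went with that model, while HTSeq counts, MI oocytes 4, 8 and 9 included, gave a negative value that was not called. Its low HTSeq counts, a median of 21 reads in MII oocytes, limit what can be read from it.

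Some other loci share sequence with the subunits. Exons of Tcp1 overlap those of Acat3, Mrpl18 and Gm26130 over 850 bases, those of Cct6a overlap Psph and Snora15 over 554 bases, and Cct7 and Cct8 overlap Pradc1 over 214 bases and Usp16 over 192 bases. The pseudogene Gm5380, 93.5% identical to Cct7 over 569 bases, had means of 17.7 and 19.2 expected counts in GV and MII oocytes of batch A. Acat2, 98.7% identical to Tcp1 over 445 bases, had means of 37.05 and 41.3 expected counts there, and Psph, identical to Cct6a over 452 bases, 29.3 and 22.8. The largest expected count of the Cct3 copies Cct3-ps1 and Gm11516 in any oocyte was 2 and 8.42, where Cct3 itself had at least 65 counts.

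The 3′ ends were read from GENCODE M21 transcripts on GRCm38, to see what the subunits share there and where the transcripts of Tcp1 end. In the last 50 bases of the most abundant coding transcript, AATAAA was found for Tcp1, Cct2, Cct5 and Cct8, ATTAAA without AATAAA for Cct3, and neither for Cct4 and Cct7, so 5 of 7 held either. Over 12368 genes 61.7% held AATAAA and 76.4% either of them, counted on the transcript strand. The cytoplasmic polyadenylation elements TTTTAT and TTTTAAT were in the last 100 bases of 0 of these 7 transcripts, and 19.0% of all genes held one, so 0 of 7 does not set the subunits apart. The last 30 bases of the transcripts that fell, and of Tcp1-209 for comparison, are printed because Tcp1-201 and Tcp1-209 differ there; capitals mark the signal. Tcp1-201 has a 3′ untranslated region of 80 bases and holds ATTAAA, Tcp1-209 one of 591 bases with AATAAA, and Cct2-201 one of 245 bases with AATAAA. The printed bases lie at chr17:12924527-12924556 and chr17:12925038-12925067 on the plus strand and at chr10:117051001-117051030 on the minus strand, in that order.
Tcp1-201: gggtgtctcacATTAAAgtacagcaagctg
Tcp1-209: tcagaAATAAAtctgcctgcctttgcctct
Cct2-201: tattaaAATAAAaatccagttacttagccc

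Within the groups the subunits moved together only in part. After subtraction of the group means, the 28 pairs of subunits had a median Pearson r of 0.184 over the 37 oocytes (median Spearman rho 0.217), from -0.289 to 0.697, and 25 pairs were positive. All pairs of 15083 genes had a median of 0.007, and pairs of the 4400 genes at least as abundant as Cct7 had 0.0184. Within GV and MII oocytes of batch A the medians were 0.577 and 0.625 (n = 6 each), and within GV and MI oocytes of batch B 0.052 (n = 10) and 0.208 (n = 15). Without MII oocyte 1 and MI oocyte 15 the median was 0.212 over 35 oocytes. With HTSeq counts it was 0.168 over the 37 oocytes, and 20 of the 28 pairs were positive. The oocytes of these correlations share a library each for all genes, so depth and scaling enter every pair, and no p is given.

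Cct5 and Cct8, the subunits with the highest levels, were the most alike pair, with r = 0.697 and rho = 0.658. Cct5 also had the highest r with the mean of the other subunits, 0.623, followed by Cct8 with 0.487, Cct3 with 0.471, Tcp1 with 0.353, Cct2 with 0.254 and Cct4 just below Cct2. Cct7 and Cct6a had 0.130 and 0.108. The lowest pair was Cct2 and Cct6a, but with HTSeq counts it was Cct6a and Cct8 (r = -0.193). Cct7 and Cct6a were, with Cct4, the subunits with the lowest counts.

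The genes most like the mean of the subunits over the 37 oocytes, of 15075 compared with a median r of 0.0649, were Dnajc14 (r = 0.745, rho = 0.785), Pdhb (0.727 and 0.767), Enpp2 (0.726 and 0.656), Nlrp14 (0.714 and 0.776) and Lonrf3 (0.710 and 0.726). Next came Trnt1 (0.709 and 0.716), Gm43678 (0.709 and 0.622), Arl6ip1 (0.708 and 0.722), Haus3 (0.708 and 0.677) and Cep70 (0.691 and 0.752). Dnajc14 encodes a DnaJ-type co-chaperone, Pdhb a subunit of pyruvate dehydrogenase, Trnt1 the enzyme that adds CCA to tRNA and Haus3 a subunit of augmin, and Nlrp14 is expressed in oocytes. These correlations are a description of points that share library and depth. The mean weighs all subunits alike and includes Cct6a by RSEM, whose counts are in doubt. The coefficient of variation of Cct6a in MI oocytes was 71.9%. The ranking was not repeated without Cct6a or with HTSeq counts.

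The partners of CCT were taken as fixed lists and read beside the share of all genes, 11.5% lower and 9.06% higher in batch A. Of the 6 prefoldin subunits, which hand actin and tubulin to CCT, 3 fell at MII and 0 rose, and the other 3 had positive changes. Pfdn1 fell from a mean of 39.8 CPM ± 7.00 (SD, n = 6) to 18.2 CPM ± 3.72 (log2 fold change -1.12, adjusted p = 0.000374), Pfdn6 by -1.25 (adjusted p = 0.00176) and Vbp1 by -0.82 (adjusted p = 0.00397). Pfdn2 had 0.40 (adjusted p = 0.0918) and Pfdn4, the most abundant, 0.15 (adjusted p = 0.622). The 6 tubulin cofactors, which pair alpha- and beta-tubulin after CCT, all had negative changes with a median of -0.484, and 1 fell, Arl2, by -1.52 from 64.4 CPM ± 17.0 to 22.5 CPM ± 4.96 (adjusted p = 8.77e-05). Of the 5 phosducin-like partners 3 were tested and 0 were called by edgeR or DESeq2 or had an unadjusted p under 0.05, with a median of 0.0633. Of the 5 CCT-like genes outside the complex 3 were tested and 0 called by either tool, with 1 at an unadjusted p under 0.05 and a median of -0.578.

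Among 24 genes for CCT clients 21 were tested, of which 7 fell and 2 rose with TMM scaling, with a median of -0.00829. The tubulin genes Tuba1b (from a mean of 74.6 CPM to 18.6 CPM, adjusted p = 2.09e-05), Tubb5 (log2 fold change -1.26, adjusted p = 2.07e-05) and Tuba4a (-1.28, adjusted p = 0.000429) and the actin gene Actg1 (-0.85, adjusted p = 0.000504) fell, and Tubb4b, the most abundant, had -0.43 (adjusted p = 0.0322). Tubb5 went from 118 CPM ± 9.33 (SD, n = 6) to 49.1 CPM ± 9.11 (n = 6), with every MII oocyte below the lowest GV oocyte, as in 5.71% of all genes tested. Tuba1c and Fzr1 were the other clients that fell, and those that rose, named after their values were seen, were Tubg2 (0.65, adjusted p = 0.00524) and Cdc20 (0.54, adjusted p = 0.0490), which turned to -0.06 and -0.13 with spike-in scaling. In the fit of both batches the change of Tubb5 to MII was lower than its change to MI by a log2 difference of -1.08 (adjusted p = 0.00456), and 1 client, Tubg2, differed the other way by 1.23 (adjusted p = 0.00312).

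The cytosolic Hsp70 and Hsp90 system had 17 of 18 genes tested, of which 4 fell and 2 rose, with a median of -0.0444. Hspa4 (-0.81, adjusted p = 0.00135), Hspa8 (-0.68, adjusted p = 0.00687) and Hsp90aa1 (-0.54, adjusted p = 0.00757), the most abundant, fell, as did Hsph1, and Ahsa1, which activates Hsp90, rose by 0.72 (adjusted p = 0.00311) with TMM scaling, or 0.04 with spike-in scaling. Hspa4l, named after its value was seen, rose by 0.42 (adjusted p = 0.0478), which turned to -0.32 with spike-in scaling. Of 9 mitochondrial and ER chaperones 2 fell, Trap1 (-1.04, adjusted p = 0.000158) and Hspa5 (-0.59, adjusted p = 0.0289), and 1 rose, Canx (0.42, adjusted p = 0.0491, turning to -0.31 with spike-in scaling), while Calr, the most abundant, had -0.29 (adjusted p = 0.219) and the median was -0.0489. The heat shock factors Hsf1 and Hsf2 had 0.44 (adjusted p = 0.242) and -0.83 (adjusted p = 0.320), and 0 of these 2 were called by edgeR or DESeq2 or had an unadjusted p under 0.05. With HTSeq counts the calls of Canx (adjusted p = 0.0611), Hspa4l (0.0623) and Cdc20 (0.0594) were lost, which left 2 of the 5 rises. Among the clients 6 of 22 were called lower with HTSeq counts, against 7 of 21 with RSEM. Over the 8 lists 16 of 68 genes were called lower with HTSeq counts, against 17 of 67. Of all genes 8.79% were called lower with HTSeq counts, against 11.5% with RSEM. With spike-in scaling in edgeR 0 of the 67 genes tested in these 8 lists were called higher at MII. Of them 43 were called lower, beside 42.2% of all genes. In either direction 46 had an unadjusted p under 0.05, beside 6875 of all 12929 genes. DESeq2 with its own scaling called 5 of 71 higher, beside 1722 of all 17409.

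From GV to MI in batch B the partners had no calls in edgeR, with 0 of the 68 genes tested in the 8 lists lower and 0 higher beside 0.0483% and 0.0966% of all genes. At an unadjusted p under 0.05 there were 8, beside 1371 of all 12419 genes. DESeq2 called 1 of 70 lower, beside 51 of all 16010 genes. It was the mitochondrial chaperonin gene Hspe1, named after its value was seen. The median log2 fold change was -0.0634 for prefoldin, 0.0175 for the phosducin-like partners, -0.382 for the tubulin cofactors, of which 5 of 6 were negative, and -0.0940 for the clients, against 0.0178 over all genes. It was 0.0947 for the Hsp70 and Hsp90 system, 0.0941 for the mitochondrial and ER chaperones, -0.173 for the CCT-like genes and 0.415 for the heat shock factors. In the contrast of the change to MII with the change to MI, 7 of 70 partner genes were lower and 2 higher, beside 2.36% and 3.10% of all genes. Apart from the clients these were Pfdn6 (-1.40, adjusted p = 0.0193), Hspa4 (-0.98, adjusted p = 0.00680), Hspa8, Hsph1, Hsp90aa1 and Trap1 (-1.06, adjusted p = 0.0259) on the lower side and Ahsa1 (0.90, adjusted p = 0.00918) on the higher. With HTSeq counts the calls of Pfdn6 (adjusted p = 0.0605), Trap1 (0.0501), Hspa8 (0.292) and Hsp90aa1 (0.0626) were lost. That fit called 4 of 69 partner genes lower and 2 higher, beside 200 and 119 of all 15461 genes. Marker genes also differed in this contrast by RSEM, where 4 of 12 oocyte markers were lower and 0 higher. Of 9 cumulus and granulosa markers 0 were called, and 1 of 2 blood and immune markers was higher, Hbb-bs (5.4, adjusted p = 0.00892). Hbb-bs was near the floor in batch A, with a mean of 0.0128 CPM in GV and 0.826 CPM ± 1.87 (SD) in MII oocytes. Its highest MII value was 4.64 CPM, and this contrast was not fitted without MII oocyte 1.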

How the data were processed

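RNA of 37 single oocytes was read at 150 bp. The authors trimmed reads with Trim Galore 0.6.4, estimated the deposited expected counts per gene and transcript with RSEM 1.3.1, and made the deposited HTSeq counts per gene with STAR 2.7.6a and HTSeq 0.12.4, on mm10 with GENCODE VM20 and ERCC sequences. Neither table was normalized. Names, positions, lengths and sequences came from GENCODE M21 on GRCm38, where 54723 of 54844 gene and 138789 of 138927 transcript features were found, and TPM used the transcripts with a length. For the tests the expected counts of the authors were taken to whole numbers by rounding, leaving out 92 spike-ins, and each contrast was fitted over all features with the quasi-likelihood test of edgeR 4.0.16 in R 4.3.3, with TMM, filterByExpr and Benjamini-Hochberg adjustment, called at an adjusted p under 0.05. The test was also run on simulated data, of which no value is given here. Log2 CPM for correlations had a prior count of 1. Copies were sought with BLAST 2.17.0 at 85% identity over 400 bases. DESeq2 1.42.0, RLE, no filter beyond 1 count, robust fits, spike-in library sizes, HTSeq counts, a batch covariate, the replicate number as a block and leaving out oocytes were tried as alternatives. Other work used Python 3.11.15, pandas 2.3.3, numpy 2.4.6, scipy 1.17.1 and matplotlib 3.10.9. All 8 subunits are named in each comparison within a batch, but only some of them in the contrast between the batches. Of their transcripts any that passed the filter are named, and in full those with an adjusted p under 0.05. Of each list up to 4 genes with the smallest adjusted p and the most abundant gene are named. Any others, among them Tuba1c, Fzr1 and Hsph1 in batch A and Inhba in batch B, were named after their values were seen. Of these list genes, those not called are printed only in part. The 10 genes with the highest r to the subunit mean are named too. Members and lists were chosen with earlier results of these data known. Depth ran from 2709280 to 19390128 expected counts per oocyte. Without molecular identifiers, copies of a molecule made by amplification are counted as reads.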

Additional observations from a re-analysis of the deposited data

Results flagged for a closer look

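Across the 8 subunits and the 3 groups of at most 10 oocytes, 24 groups of values were examined for a single oocyte far from the rest, and 1 was found. Chance flags about 1 in 20 groups. Tcp1 in GV oocyte 1 of batch A was at 90.3 CPM, while the other GV oocytes of the batch lay between 131 and 142 CPM, and its gap to the nearest of them was 0.782 of the whole range, above the critical value of 0.625 for n = 6. The same oocyte had the lowest depth of its group, 7509875 expected counts, and 44663 spike-in counts, the fewest in batch A. Without it the log2 fold change of Tcp1 at MII was -0.32 (adjusted p = 0.142).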

How the results depend on the processing

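Cct2 was called lower at MII in every alternative fit, with adjusted p from 0.00163 to 0.00523 over the oocytes left out in turn. The count of subunits called lower in batch A was 1 with the replicate number as a block (990 of all 12929 genes), 1 with all 37 oocytes and a batch covariate (611 of 15083), 6 with spike-in library sizes (5452 of 12929) and 0 past a 2-fold change, and 1 to 2 with an oocyte left out. Replicate numbers do not pair oocytes, since numbered pairs had r from -0.308 to 0.334. Transcripts called lower were 1 with the block and 9 with spike-ins, where 407 and 5026 of all 22461 were. The ratio of subunit shares per spike-in count was 0.522, and the percents held by Cct5 from HTSeq counts per merged exon length were 44.5, 39.8, 53.4 and 55.0 in GV and MII of batch A and GV and MI of batch B. Directions turned as follows. In batch A Cct6a had -1.74 with HTSeq counts, -0.55 with spike-ins and -1.53 without Cct6a-203, Cct8 had -0.47 with spike-ins, and Cct6a-203 had -0.0139 with them. In batch B Cct6a went from 0.97 to -0.23 with HTSeq counts of all oocytes. Cct7 and Cct8 were near 0 there. Cct7 had 0.0562 with HTSeq counts, 0.0730 with those and without MI oocytes 4, 8 and 9, and 0.0290 with the block; Cct8 had -0.00085 with no filter, -0.0432 with the block, -0.0113 with a batch covariate, and without MI oocytes 4, 8 and 9 -0.0420 by RSEM and -0.0232 by HTSeq. With oocytes left out in turn Cct7 ran from -0.15 to 0.0274 and Cct8 from -0.0691 to 0.0523, and Tcp1-209 had 0.0275 without MII oocyte 1. Others not called also moved, in batch A Cct6a from 0.0471 to 0.27, Cct7 from -0.21 to -0.0951 and Cct8 from 0.15 to 0.35, and in batch B Cct3 from -0.27 to -0.13, Cct4 from 0.10 to 0.39 and Cct5 from 0.0262 to 0.10. The difference of Tcp1 between the changes had -0.15 with HTSeq counts and -0.0482 with no filter. Cct3 missed the threshold with no filter (adjusted p = 0.101), the block (0.103), the batch covariate (0.256) and HTSeq counts, and Tcp1-201 with the block (0.0609). Apart from the cases where the spike-ins shift all genes or a transcript or oocytes are left out, the cause was not tested. In all, 16 of the member values reversed, 7 passed and 5 missed the threshold anew and 180 kept direction and side, and of the counts and summary values 11 moved and 62 did not. Low counts limit Cct6a by HTSeq, with a median of 21 reads in MII oocytes.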
